A study of Mus musculus with 2 samples.

Results

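The genes described here are the nuclear and mitochondrial genes of oxidative phosphorylation in single colon crypt cells of the mouse. They were taken by symbol. A row belonged to the group if its symbol began with mt-, Uqcr, Cox4 to Cox8 or Atp5, or with Ndufa, Ndufb, Ndufc, Ndufs or Ndufv followed by a digit, or if it was Sdha, Sdhb, Sdhc, Sdhd or Cycs, and rows with -ps in the symbol were left out. The rule took 113 of the 19294 rows in the matrix, 82 of them nuclear and 31 mitochondrial. The nuclear rows were 35 for complex I, 4 for complex II, 8 for complex III, 17 for complex IV, 17 for complex V and Cycs. Of these, 3 are not subunits, namely Atp5s, Atp5sl and the supercomplex assembly factor Cox7a2l. The mitochondrial rows were 11 mRNAs, 2 ribosomal RNAs and 18 transfer RNAs.

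Cells came from pooled samples 1 to 3 and pooled samples 4 to 6 of C57BL/6 mice aged 4 to 10 months that carried Tcf4 GfpCre/+ and RosamTmG/+, with no pretreatment. Cre was driven from the Tcf4 locus in place of 1 allele, so that every mouse was heterozygous for Tcf4, and the samples hold no other genotype. The reporter glows red until Cre acts and green afterwards, and cells whose Tcf4 promoter had never been active (Tcf4 Lin−, red) and cells with both colours (DP in the labels, MIX in the study's text) were sorted live and run by Drop-seq after human cells had been added to each. The sex of the mice was not given.

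Oxidative phosphorylation passes electrons from NADH and succinate through complexes I to IV of the inner mitochondrial membrane and uses the proton gradient that results to make ATP at complex V. Most subunits are encoded in the nucleus and imported, while the mitochondrial genome encodes a few hydrophobic core subunits of complexes I, III, IV and V together with the ribosomal and transfer RNAs needed to translate them. In the colon the pathway is known for burning butyrate from the gut bacteria in absorptive colonocytes.

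In Drop-seq a transcript is tagged in its droplet with the barcode of the cell and a molecular tag (UMI), so that PCR copies count once, and counts here are UMIs. The matrix held 1117 barcodes and 1023641 UMIs, and 601 barcodes were in no list. The authors' lists name 516 barcodes in 4 clusters, natural intraepithelial lymphocytes (nIELs, 190), induced intraepithelial lymphocytes (iIELs, 186), B cells (47) and epithelial Pigr+ cells (93), and 106 barcodes in 3 epithelial subclusters. The subclusters were stem cells (32 cells, 69046 UMIs, median 996 per cell), secretory precursors (32 cells, 128664 UMIs, median 1820) and absorptive precursors (42 cells, 151780 UMIs, median 1940). The epithelial marker list summed to between 23320 and 31000 UMIs per 1000000 (CPM) in the 3 subclusters, the secretory list to 68840 CPM in the secretory precursors against 20840 and 5996 CPM in stem cells and absorptive precursors, and the absorptive list to 6984 CPM in absorptive precursors against 1608 and 1368 CPM. The stem list stood at 6315 CPM in the stem cells against 1383 and 1608 CPM in secretory and absorptive precursors. Barcodes carry the suffix X1 or X2, and no label ties a suffix to a pool or a sort. X1 held 17 of the 32 stem cells, 28 of the 32 secretory precursors and 34 of the 42 absorptive precursors, so a difference between suffixes moves with stem cells. The matrix was therefore treated as 1 sample, no test between groups of cells was possible, and every interval is an exact 95% interval that covers counting error only. The clusters were made from all genes of these cells, so folds between them are a description.

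The names of 14 subcluster cells disagreed between the lists. They were called iIELs (11) or nIELs (3) in the list of all cells and stem cells (6), secretory precursors (3) or absorptive precursors (5) in the epithelial list. The 10 T-cell and IEL markers had 0 UMIs in the 6 stem cells, 2 UMIs in the 3 secretory cells and 25 UMIs in 3 of the 5 absorptive cells (487 CPM), against 11600 CPM in the nIEL cluster and 7750 CPM in the iIEL cluster. The 4 deepest subcluster cells, with 19945 to 23205 UMIs, were among these 14. The deepest stem cell alone held 33.6% of the stem cell UMIs. Where leaving these cells out moved a value given below by over 1.5 times or to the other side of 1, the value without them stands beside it.

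The reads of a Drop-seq library come from the 3′ ends of transcripts, where some mitochondrial mRNAs have exact nuclear copies. A pair of 60-base stretches is shown on the plus strand of GRCm38 (chrM:7634-7693 and chrM:15229-15288). They lie near the 3′ end of mt-Co2, a catalytic subunit of complex IV, and of mt-Cytb, the cytochrome b of complex III. For the mitochondrial sums below, mt-Co2 marks the worst case and mt-Cytb the best. The mt-Co2 stretch is found letter for letter in the pseudogenes Gm13341 and Gm28661. The mt-Cytb stretch was found in no other annotated gene.
mt-Co2: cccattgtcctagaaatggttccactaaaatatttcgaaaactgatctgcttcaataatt
mt-Cytb: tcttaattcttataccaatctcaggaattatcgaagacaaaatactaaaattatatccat

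Absorptive precursors held the highest share of nuclear oxidative phosphorylation transcripts among all named groups. The nuclear members took 5.66% of their UMIs (5.54% to 5.77%), against 3.37% (3.27% to 3.47%) in secretory precursors and 3.18% (3.05% to 3.31%) in stem cells. Cell by cell, the lowest, median and highest shares were 1.497%, 5.24% and 11.3% in absorptive precursors, 1.03%, 2.78% and 4.44% in secretory precursors and 1.38%, 2.38% and 4.68% in stem cells. No stem cell (0 of 32) and no secretory cell (0 of 32) lay above the absorptive median, and 40 of the 42 absorptive cells lay above each of the other medians. The lymphocyte clusters were lower, at 1.80% in nIELs, 2.79% in iIELs and 1.78% in B cells, and the iIEL value was 1.92% without the 11 cells that also carry an epithelial name. The epithelial cluster stood at 4.32% (4.24% to 4.40%).

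Mitochondrial rows behaved differently from nuclear ones across the subclusters. They took 6.54% of the UMIs in stem cells, 4.91% among secretory precursors and 6.21% among absorptive precursors. The lowest, median and highest cells were at 1.99%, 6.91% and 18.4% in stem cells, 1.84%, 5.73% and 16.4% in secretory precursors and 1.68%, 7.86% and 17.7% in absorptive precursors, so that the ranges overlapped throughout. In all, 11 of 32 stem cells and 9 of 32 secretory cells lay above the absorptive median. Leaving the mitochondrial UMIs out of the totals kept the order of the nuclear share, at 6.03% in absorptive precursors, 3.54% among secretory precursors and 3.40% among stem cells.

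**Figure D1:**
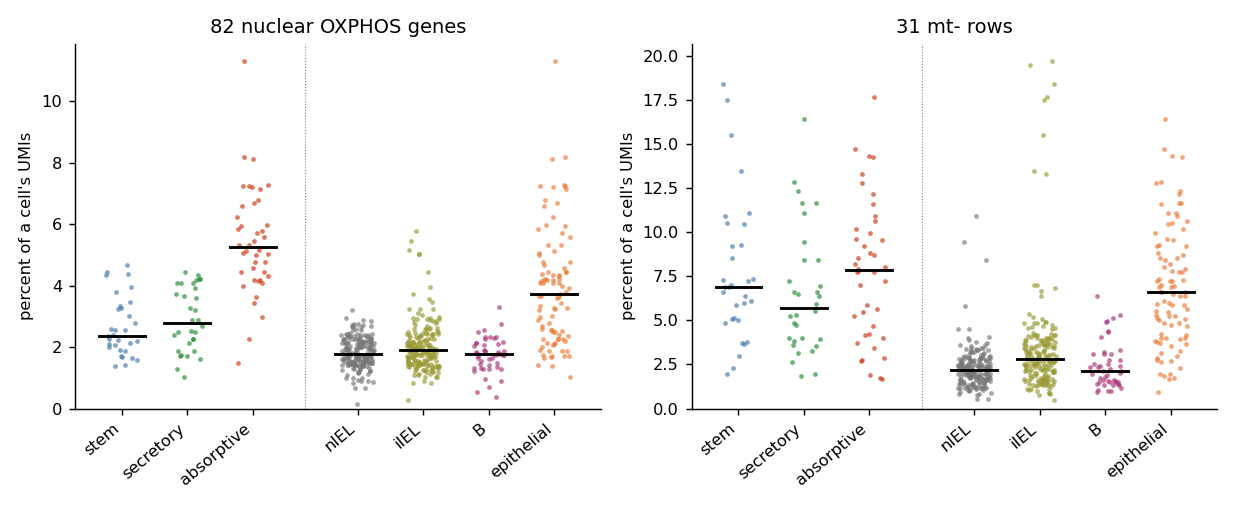
Percent of each cell's UMIs in the 82 nuclear members (left) and in the 31 mt- rows (right), with 1 point per cell, a black line at the median of each group, subclusters left of the dotted line and clusters right of it (cells of the subclusters appear again in the epithelial, iIEL and nIEL clusters). Nuclear shares of absorptive precursors sit around a median of 5.24%, above every stem and secretory cell, while the mt- shares of the 3 subclusters overlap.

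As folds of summed CPM against the other subcluster cells, the nuclear members were 1.72-fold (1.66 to 1.77) in absorptive precursors, 0.689-fold (0.665 to 0.714) among secretory precursors and 0.690-fold (0.659 to 0.722) among stem cells. The mt- rows were 1.13-fold (1.10 to 1.17), 0.779-fold and 1.16-fold (1.13 to 1.20) in the same order. The ratio of mt- to nuclear UMIs was therefore 2.06 (1.95 to 2.17) in stem cells, 1.46 (1.41 to 1.52) among secretory precursors and 1.10 (1.07 to 1.13) among absorptive precursors. With the mt- mRNAs alone it was 1.32 in stem cells, 0.796 among secretory precursors and 0.695 among absorptive precursors. The stem cell ratio was 2.54 without the cells with 2 names. The ratio differed between barcode sets, since in stem cells it was 3.42 in X1 and 1.55 in X2, in secretory precursors 1.61 and 0.885, and in absorptive precursors 1.09 and 1.14.

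Counting single genes, 75 of the 82 nuclear members had at least 20 UMIs in the 106 subcluster cells. The others, Atp5g2, Atp5s, Atp5sl, Cox6a2, Cox6b2, Cox8b and Cox8c, had between 0 and 17. In absorptive precursors 52 of these 75 were at or above 1.5-fold, where 27.5% of all 3013 genes with that many UMIs were, and 0 were at or under 1/1.5, where 21.7% of all genes were. All of the 75 but Ndufv3 had a fold above 1, and their median was 1.65 against 1.08 over all genes. In stem cells 0 were at or above 1.5-fold (24.9% of all genes) and 38 were at or under 1/1.5 (28.5%), with a median of 0.662 against 0.975. In secretory precursors 1 was at or above 1.5-fold (16.3%) and 39 were at or under 1/1.5 (32.2%), with a median of 0.664 against 0.837. Without the cells with 2 names, 54 were higher in absorptive precursors (29.3% of all genes in those cells), 46 lower and 2 higher in stem cells (36.2% of all genes lower) and 32 lower in secretory precursors (32.9%). The counts differed between barcode sets. In X2, where 65 members had enough UMIs, 26 were higher and 3 lower in absorptive precursors (20.4% and 26.5% of all genes), 23 were lower in stem cells (25.2%), and 15 were lower and 9 higher in secretory precursors (27.6% and 25.6%), so that the secretory share of lower members was not above that of all genes. In X1 59 of 75 were higher in absorptive precursors (33.1%), 49 lower in stem cells (42.0%) and 48 lower in secretory precursors (34.4%). Each subcluster is set against the other subclusters, so the 3 sets of counts are not independent.

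**Figure D2:**
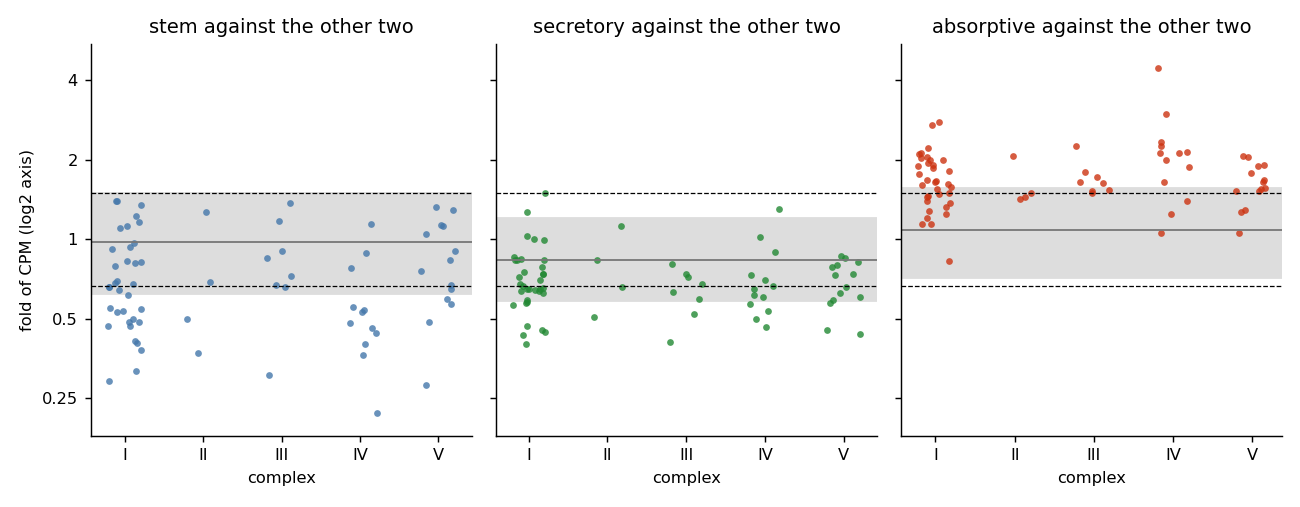
Fold of CPM (log2 axis) of each nuclear member with at least 20 UMIs, by complex, for each subcluster against the other subcluster cells, with the grey band at the quartiles and the grey line at the median of all 3013 genes and dashed lines at 1.5 and 1/1.5. Absorptive members lie above 1 apart from Ndufv3 (0.83), and the lowest stem point is Cox8a (0.22). Cox7a1, at 0 UMIs in stem cells, is not drawn there, and neither is Cycs.

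Complex I takes electrons from NADH. In absorptive precursors 22 of its 35 nuclear members were at or above 1.5-fold (27.5% of all genes), and its summed level was 1.64-fold. At or under 1/1.5 were 18 in stem cells (28.5% of all genes, 0.700-fold in sum) and 18 in secretory precursors (32.2%, 0.720-fold). In X2, 11 of 29 were higher in absorptive precursors (20.4%) and 11 lower in stem cells (25.2%). In secretory precursors 3 were lower there (27.6%) and 7 higher (25.6%), neither above the share of all genes. Ndufb9, the accessory subunit with most UMIs of the complex, had 161 UMIs in absorptive precursors (1061 CPM), 66 in secretory precursors (513 CPM) and 36 in stem cells (521 CPM), so that secretory precursors and stem cells were alike and absorptive precursors 2.06-fold (1.59 to 2.66) higher than these combined. Ndufb4, an accessory subunit of the membrane arm, had 66, 24 and 7 UMIs, and was the highest of the complex in absorptive precursors at 2.77-fold (1.78 to 4.40). Ndufa6, which sits beside the quinone site, had 123, 38 and 21 UMIs (2.72-fold in absorptive precursors). The exception was Ndufv3, a small accessory subunit of the NADH-oxidising module, with 54, 59 and 26 UMIs and folds of 0.828 (0.577 to 1.18) in absorptive and 1.27 (0.889 to 1.79) in secretory precursors, both intervals holding 1.

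Core subunits of complex I carry the flavin and the iron-sulfur clusters. Ndufv1, the NADH-binding flavoprotein, was the highest member of the complex in stem cells, with 12 UMIs and a fold of 1.39 (0.658 to 2.75), but 0.975 (0.292 to 2.58) without the cells with 2 names. Ndufs7, which lies near the end of the path to quinone, had 22 UMIs in stem cells and a fold of 1.16 (0.688 to 1.88), or 0.792 (0.363 to 1.55) without those cells. In secretory precursors Ndufs7 was low, at 0.435-fold (0.252 to 0.717), and Ndufs1, the largest iron-sulfur subunit, was the lowest of the complex there at 0.401-fold (0.148 to 0.930) on 7 UMIs. Ndufs5 gave the lowest stem cell fold (0.290, on 2 UMIs, both of them in cells with 2 names) and the highest secretory fold (1.502, 0.679 to 3.28, on 14 UMIs), but 43.3% of the 100-base windows at its 3′ end recur in another gene and its counts are uncertain.

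Complex II is the only complex encoded wholly in the nucleus and also serves the citric acid cycle. Its 4 subunits summed to 1.67-fold in absorptive precursors, 0.684-fold among secretory precursors and 0.737-fold among stem cells. Sdhb, the iron-sulfur subunit, had 84, 38 and 15 UMIs in absorptive precursors, secretory precursors and stem cells and was 2.07-fold (1.45 to 2.97) in absorptive precursors. Sdha, the flavoprotein, was 0.369-fold (0.0964 to 1.01) in stem cells on 4 UMIs, and Sdhd, a membrane anchor, 1.26-fold (0.796 to 1.95) on 28 UMIs. Both intervals hold 1. In the same cells Sdhb was 0.499-fold (0.271 to 0.8565) and Sdhc 0.691-fold (0.282 to 1.48). In secretory precursors Sdhd was 0.509-fold (0.319 to 0.790) and Sdha 1.12-fold (0.596 to 2.08).

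Complex III passes electrons to cytochrome c. Of its 8 nuclear members 7 were at or above 1.5-fold in absorptive precursors (1.70-fold in sum), where 27.5% of all genes were. The remaining one, Uqcr11, was just under at 1.496-fold. In X2 alone 2 of the 8 were at or above 1.5-fold (20.4% of all genes). Uqcrh, the hinge protein beside cytochrome c1, had most UMIs, with 210, 124 and 55 in absorptive precursors, secretory precursors and stem cells. Uqcrb, which lies near the quinone-binding site, showed the widest gap, at 154, 72 and 17 UMIs and 0.306-fold (0.175 to 0.500) in stem cells, or 0.123-fold (0.0331 to 0.321) without the cells with 2 names, although 25.9% of its 3′ windows are copied elsewhere. Uqcrc2, a large matrix-facing subunit, went the other way in stem cells with 1.37-fold (0.835 to 2.19) on 25 UMIs, and was 0.408-fold (0.233 to 0.679) in secretory precursors. Cycs, the mobile carrier cytochrome c, had 73, 40 and 16 UMIs and was 1.70-fold (1.18 to 2.45) in absorptive precursors and 0.575-fold (0.318 to 0.975) in stem cells.

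Complex IV, cytochrome c oxidase, reduces oxygen to water and showed the widest span of the 5 complexes. Its nuclear members summed to 1.95-fold (1.84 to 2.07) in absorptive precursors and to 0.511-fold (0.466 to 0.560) in stem cells, or 0.387-fold (0.337 to 0.442) in stem cells without the cells with 2 names. Of the 13 with enough UMIs, 10 were higher in absorptive precursors (27.5% of all genes). At these thresholds 10 were lower in stem cells (28.5%) and 8 in secretory precursors (32.2%). In X2, 6 of 12 were higher in absorptive precursors (20.4%) and 5 lower in stem cells (25.2%). In secretory precursors 3 were lower there (27.6%) and 1 higher (25.6%), neither above the share of all genes. Within the barcode sets, the stem cell fold was 0.287 in X1 and 0.646 in X2.

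Cox7c, a small membrane subunit, had most UMIs of the complex, 368 in absorptive precursors (2425 CPM), 163 in secretory precursors (1267 CPM) and 63 in stem cells (912 CPM). Its level was 2.12-fold (1.79 to 2.51) in absorptive precursors, but 59.7% of its 3′ windows are copied in other genes. Cox5a, a matrix-side subunit with no such copy, had 147, 45 and 19 UMIs and was 2.99-fold (2.22 to 4.08) in absorptive precursors. Cox4i1, the largest nuclear subunit, had 349, 147 and 95 UMIs and was 1.88-fold (1.59 to 2.22). Ndufa4, now counted with this complex, stood at 395, 389 and 348 CPM, and its stem cell fold of 0.886 was 0.461 (0.193 to 0.948) without the cells with 2 names.

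Cox8a, a small subunit needed for assembly of the complex, had the lowest stem cell fold of the complex among members with UMIs there, and Cox7a1 had none. Cox8a had 181 UMIs in absorptive precursors (1193 CPM), 151 in secretory precursors (1174 CPM) and 18 in stem cells (261 CPM), and was seen in 28 of 42, 16 of 32 and 3 of 32 cells. The stem cell fold was 0.220 (0.129 to 0.354). The deepest stem cell held 16 of the 18. Without the cells with 2 names, 2 stem cell UMIs were left and the fold was 0.0416 (0.00500 to 0.152), and within the barcode sets it was 0.0308 in X1 and 0.493 in X2. The level in secretory precursors was as high as in absorptive precursors, unlike that of Cox7c, Cox5a and Cox4i1.

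Several subunits of complex IV come as a common form and a second form found in fewer tissues, for some of them heart and skeletal muscle. Cox7a1, the muscle form that pairs with Cox7a2, had 24 UMIs in 12 of 42 absorptive precursors, 7 UMIs in 6 of 32 secretory precursors and 0 UMIs in 32 stem cells, which allows up to 9.38% of such cells to hold a UMI. That limit is for UMIs and not for cells that express the gene, and stem cells were the shallowest subcluster (median 996 UMIs, against 1940 in absorptive precursors). Its fold in absorptive precursors was the highest of any nuclear member, 4.47 (1.87 to 12.3), and 2.94 (1.11 to 8.60) without the cells with 2 names. The common form Cox7a2 had 200, 83 and 32 UMIs and was 2.27-fold (1.79 to 2.88). Across the clusters Cox7a1 was 3.93-fold (1.88 to 8.54) higher in the epithelial cluster than in the rest, and 14.2-fold (4.23 to 74.1) without the cells with 2 names, which held 10 of its 13 UMIs outside that cluster. Cox6a2, the muscle form of Cox6a, had 0 UMIs in all 3 subclusters, and Cox6b2, Cox8b and Cox8c had 3 UMIs or fewer in them.

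Complex V, the ATP synthase, was nearest to 1 in stem cells, at 0.883-fold (0.811 to 0.960), and stood at 1.55-fold (1.45 to 1.65) in absorptive and 0.661-fold in secretory precursors. Atp5e, the epsilon subunit of the central stalk and the member with most UMIs, was level, with 1324, 1166 and 1405 CPM in absorptive precursors, secretory precursors and stem cells. Atp5d, the delta subunit of the same stalk, had 164, 63 and 74 UMIs, which put it at 1.56-fold (1.24 to 1.97) in absorptive precursors, 0.454-fold (0.339 to 0.602) among secretory precursors and 1.32-fold (1.00 to 1.73) among stem cells. Atp5o, the peripheral stalk subunit that confers oligomycin sensitivity, followed the same order, at 1.79-fold, 0.437-fold and 1.14-fold. Secretory precursors were thus the low group for Atp5d and Atp5o, not stem cells. This did not hold for every subunit of the central and peripheral stalks, since others were below 1 in stem cells. Atp5c1 was 0.484-fold (0.279 to 0.792) there, Atp5h 0.6475-fold (0.434 to 0.938) and Atp5f1 0.67-fold (0.446 to 0.977). Atp5j was lower than Atp5h in stem cells, with and without the cells with 2 names. Atp5l, a membrane subunit at dimer contacts, was 2.06-fold in absorptive precursors and 0.280-fold in stem cells, on 19 and 2 UMIs (0 without the cells with 2 names) and with 54.7% of its 3′ windows copied elsewhere.

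Sorting the nuclear members by kind of subunit gave a contrast in stem cells. Core subunits, meaning those that carry redox centres or belong to the conserved F1 and c-ring parts of complex V, summed to 0.954-fold (0.869 to 1.05), and accessory subunits to 0.626-fold (0.594 to 0.660). Without the cells with 2 names the values were 0.907 (0.802 to 1.02) and 0.520 (0.483 to 0.560). By gene, 6 of 19 core subunits (31.6%) and 31 of 54 accessory subunits (57.4%) were at or under 1/1.5, where 28.5% of all genes were, so the core share was near that of all genes. A fold above 1 was held by 10 of 19 core and 5 of 54 accessory subunits, beside 1474 of all 3013 genes. Without the cells with 2 names the counts were 7 of 19 core, 5 of 54 accessory and 980 of 2171 genes. Without the 4 deepest cells they were 5 of 19, 6 of 54 and 1045 of 2279. In X1 they were 3 of 19, 5 of 54 and 958 of 2254, and in X2 7 of 14, 8 of 49 and 344 of 769.

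The same held inside complex V, with 1.00 (0.895 to 1.12) for core and 0.748 (0.654 to 0.851) for accessory subunits. Inside complex I it was 0.991 (0.779 to 1.25) against 0.667 (0.608 to 0.731). Barcode set X2 gave 0.979 for core and 0.689 for accessory subunits over all complexes, and X1 gave 0.706 and 0.461, so both kinds were lower in X1 with a similar gap. Within complex I in X1 the gap was absent, at 0.576 (0.342 to 0.915) and 0.587 (0.501 to 0.685). In absorptive precursors core subunits were 1.46-fold (1.36 to 1.57) and accessory subunits 1.79-fold (1.72 to 1.86). In secretory precursors they were close, at 0.671-fold and 0.694-fold.

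**Figure D3:**
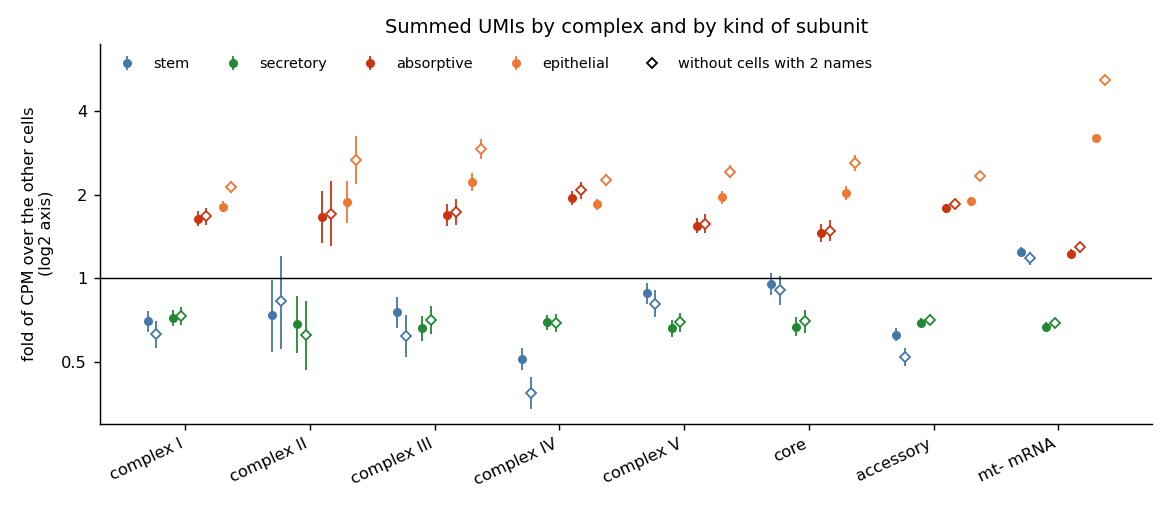
Fold of summed CPM over the other cells of the same clustering (log2 axis) by complex, by kind of nuclear subunit and for the mt- mRNAs, with filled circles for all cells, open diamonds without the cells with 2 names, and bars for 95% counting intervals. In stem cells complex IV is lowest (0.511, open 0.387) and core subunits lie near 1 (0.954) above accessory ones (0.626), and the epithelial cluster has its highest value for mt- mRNAs (3.22, open 5.21).

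NRF1, a transcription factor that drives respiratory genes, binds a GC-rich element. Promoter windows of 250 bases before to 50 after the start (RefSeq, GRCm38.p6) were matched by symbol for 66 of the 82 nuclear members, and the letters GCATGCGC were searched on both strands. They occurred in 11 of the 66 (16.7%, 8.63% to 27.9%), where any window of a symbol counted. The share was 3.05% of all 27025 symbols and 6.91% of the 2186 with at least 20 UMIs in the subclusters. The 66 members were not held to that minimum. The ETS letters CCGGAAG occurred in 24.2% of members, 9.93% of all symbols and 23.1% of those 2186. Read against expressed genes, the ETS share was near the background, and so was CCAAT (43.9% against 42.9%). The letters GGGCGG were in 39.4% against 70.7%, and TATAAA in 9.09% against 9.20%. These are matches of letters and not shown to be sites, and windows of different members are not independent where genes share a bidirectional promoter.

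The 11 were Ndufa11, Ndufa6, Ndufa8, Sdhb, Uqcr11, Uqcrc1, Cox6a1, Atp5g2, Atp5k, Atp5l and Cycs, so that every complex and cytochrome c had at least 1. The stretches around the letters (in capitals) are shown for Cox6a1 and Ndufa6, which have most subcluster UMIs among those whose letters lie upstream of the start in both the RefSeq and the GENCODE annotation. The starts differ between the annotations, and in Atp5k and Sdhb the letters lie upstream by RefSeq but inside the transcript by GENCODE. By RefSeq the first capital lies 160 bases before the start in Cox6a1 (chr5:115349085-115349144, minus strand) and 83 in Ndufa6 (chr15:82354341-82354400, minus strand). Members with and without the letters were higher in absorptive precursors, and no relation between the letters and the levels was tested.
Cox6a1: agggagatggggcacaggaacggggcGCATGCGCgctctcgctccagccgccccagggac
Ndufa6: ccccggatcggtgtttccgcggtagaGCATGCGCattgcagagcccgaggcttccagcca

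Cox6a1, a complex IV subunit, had 318, 133 and 60 UMIs in absorptive precursors, secretory precursors and stem cells and was 2.15-fold (1.79 to 2.58) in absorptive precursors. Atp5k, a membrane subunit of complex V, had 195, 91 and 42 UMIs (1.91-fold, 1.52 to 2.40). Ndufa6 is given above.

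Mitochondrial mRNAs are cut from long transcripts that cover whole strands of the genome. In absorptive precursors their sum was 1.23-fold (1.18 to 1.27), in stem cells 1.25-fold (1.20 to 1.30) and in secretory precursors 0.667-fold. mt-Cytb had 1975, 1018 and 1016 UMIs in absorptive precursors, secretory precursors and stem cells (1.27-fold, 0.584-fold and 1.38-fold). The complex I subunits mt-Nd1, mt-Nd2, mt-Nd4 and mt-Nd5 were between 1.14-fold and 1.25-fold in absorptive precursors, between 0.646-fold and 0.766-fold among secretory precursors and between 1.11-fold and 1.37-fold among stem cells. mt-Co1, the catalytic subunit of complex IV, was 1.32-fold, 0.755-fold and 0.961-fold, and mt-Nd3 was 1.93-fold, 0.453-fold and 0.978-fold on 40, 14 and 13 UMIs.

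mt-Nd6 departed from the rest. It is the only mRNA encoded on the light strand, and had 35 UMIs in absorptive precursors, 60 among secretory precursors and 28 among stem cells. It was 0.518-fold (0.340 to 0.775) in absorptive and 1.64-fold (1.13 to 2.37) in secretory precursors, opposite in direction to the other 7 mt- mRNAs with at least 20 UMIs. Without the cells with 2 names these were 0.626-fold (0.380 to 1.01) and 1.56-fold. Its stem cell fold was 1.20 (0.756 to 1.84), and 0.972 without those cells. Transcripts of the heavy strand run across the gene, and whether counting used strand is not given in the sources used here, so its counts are uncertain.

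The ribosomal RNAs also parted. mt-Rnr1, the small-subunit rRNA, had 667, 258 and 180 UMIs and was 1.98-fold (1.76 to 2.24) in absorptive precursors, 0.523-fold among secretory precursors and 0.790-fold among stem cells, close to the pattern of the nuclear members. mt-Rnr2, the large-subunit rRNA and the largest of the mt- rows with 35888 UMIs over all barcodes, was 0.884-fold (0.840 to 0.929), 1.07-fold (0.951 without the cells with 2 names) and 1.10-fold. The 18 transfer RNA rows held 2555 UMIs in all, between 1 and 925 (mt-Tc) a row.

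The mt- mRNA rows were not equally filled. Over all barcodes mt-Cytb had 15552 UMIs, mt-Nd1 10658, mt-Nd4 7559, mt-Co1 6660, mt-Nd2 6507, mt-Nd5 4785, mt-Nd6 708 and mt-Nd3 316. The rows of mt-Co3, mt-Atp6 and mt-Co2 had 6, 3 and 2 UMIs. The matrix had no row for mt-Nd4l or mt-Atp8. Of the 100-base windows in the last 300 bases, 98.5% of those of mt-Co2 and of mt-Atp6, 99.5% of those of mt-Co3, 98.5% of those of mt-Nd3 and 100% of those of mt-Co1 recur exactly in another annotated gene. mt-Cytb, mt-Nd1, mt-Nd4, mt-Nd5 and mt-Nd6 had no such window, and mt-Nd2 had 14.9%. mt-Co1 kept 6660 UMIs in spite of its copies, so a copy and a near-empty row did not always go together.

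**Figure D4:**
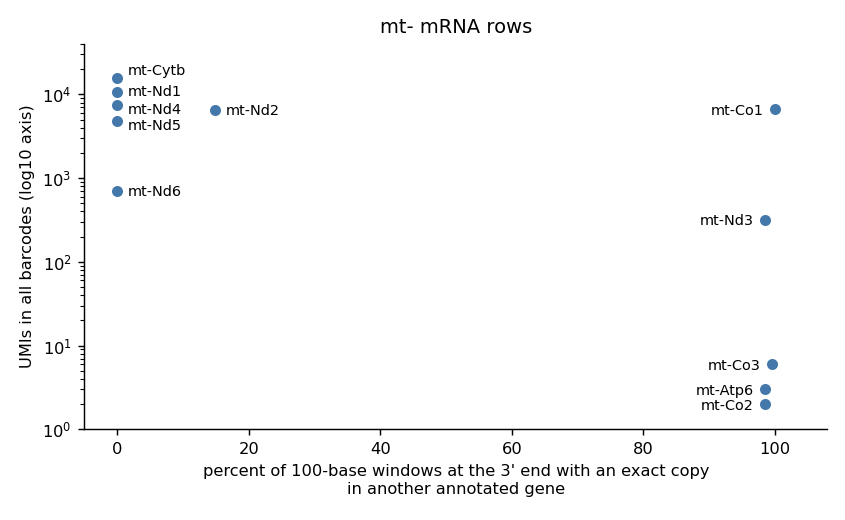
UMIs over all barcodes (log10 axis) of the 11 mt- mRNA rows against the percent of 100-base windows at the 3′ end that recur exactly in another annotated gene. The 3 rows with 2 to 6 UMIs lie above 98%, where mt-Co1 with 6660 UMIs and mt-Nd3 with 316 also lie.

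Among annotated pseudogenes, 12 rows share an exact 50-base stretch with an mt- mRNA. The row with most UMIs was Gm13341 on the minus strand of chr2:22587291-22587962, an unprocessed pseudogene that shares 224 of the 635 such stretches of mt-Co2 (35.3%), including the mt-Co2 stretch printed above. It held 4185 UMIs. Its level was 3189 CPM (2911 to 3486) in absorptive precursors, 1881 CPM among secretory precursors and 1796 CPM among stem cells. That is 1.72-fold (1.501 to 1.98) in absorptive precursors. Gm13340 next to it (chr2:22588103-22589647) held 952 UMIs and shares 27.5% of the stretches of mt-Co1. Per 100 UMIs of mt- mRNA rows, the 12 rows together held 6.02 UMIs in stem cells, 9.70 among secretory precursors and 11.1 among absorptive precursors. Whether their UMIs came from the mitochondrial genes was not tested, and the mt- sums above leave them out.

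Most nuclear members were free of such copies, with no copied window in 72 of the 81 whose transcript was found. The others were Cox7c, Atp5l, Ndufs5, Ndufs3 (41.3%), Uqcrb, Cox6c (22.9%), Atp5h (15.9%), Atp5g2 (13.9%) and Atp5o (6.47%), whose counts are uncertain to that extent.

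The epithelial cluster was set against the 3 lymphocyte clusters. Its nuclear members were 1.91-fold (1.86 to 1.96) higher and its mt- rows 2.02-fold (1.97 to 2.06). At least 20 UMIs in the 516 cells were held by 77 nuclear members, of which 61 were at or above 1.5-fold, where 28.2% of all 6173 such genes were, and 1 was at or under 1/1.5, where 34.5% were. Their median was 1.88 against 0.930 over all genes. Without the cells with 2 names, 67 were at or above 1.5-fold (29.4% of all genes), and in X2 alone 32 of 67 were (29.1%).

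All 8 nuclear members of complex III were above 1.5-fold, which no other complex matched (28 of 35 in complex I, 3 of 4 in complex II, 10 of 13 in complex IV and 11 of 16 in complex V). In X2 alone complex III did not stand apart, with 5 of 8 beside 8 of 13 in complex V. Complex I had 14 of 31 there and complex IV 4 of 12. Uqcr10, a small subunit of complex III, was 3.69-fold (3.07 to 4.45), with 293 UMIs in 93 epithelial cells and 193 in the 423 lymphocytes, and 6.04-fold (4.79 to 7.68) without the cells with 2 names. Sdha was 3.22-fold (1.97 to 5.30), Ndufs6, an accessory subunit of complex I, 2.96-fold (2.34 to 3.75) and Atp5o 2.73-fold (2.21 to 3.38). At the low end, Ndufa6 was 1.12-fold (0.902 to 1.39), Sdhc 1.22-fold, Cox7a2l 0.773-fold (0.588 to 1.01) and Atp5g2, which encodes the ATP synthase c ring, 0.644-fold (0.271 to 1.37) on 9 UMIs. Ndufa6, among the highest of complex I in absorptive precursors, was thus near level between epithelium and lymphocytes.

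The mt- mRNAs were 3.22-fold (3.12 to 3.32) in the epithelial cluster, and 5.21-fold (5.01 to 5.41) without the cells with 2 names. mt-Cytb was 3.69-fold (3.49 to 3.91), mt-Nd4 3.58-fold, mt-Nd1 3.29-fold, mt-Nd2 2.89-fold, mt-Nd5 2.69-fold, mt-Co1 2.57-fold, mt-Nd3 2.55-fold and mt-Nd6 2.25-fold. Leaving out the cells with 2 names gave mt-Cytb at 6.499-fold, mt-Nd4 6.53-fold, mt-Nd1 5.66-fold and mt-Nd3 5.11-fold. The rRNAs were less apart, at 2.14-fold for mt-Rnr1 and 1.27-fold (1.22 to 1.31) for mt-Rnr2. The cysteine transfer RNA row mt-Tc ran the other way, with 69 UMIs in epithelial cells and 707 in lymphocytes (0.237-fold, 0.183 to 0.304), whereas the tyrosine row mt-Ty was 2.95-fold (2.13 to 4.11). Both genes lie on the light strand and carry the same uncertainty as mt-Nd6. The barcode sets differed here too, with the mt- mRNA fold at 3.71 in X1 and 1.54 in X2.

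The make-up of the mt- mRNAs was compared by the shares of mt-Cytb and mt-Nd6. mt-Cytb was 35.1% (33.4% to 36.9%) of mt- mRNA UMIs in stem cells, 29.6% among secretory precursors and 33.1% among absorptive precursors, and 26.9% in nIELs, 29.9% in iIELs and 26.8% in B cells. mt-Nd6 was 0.968%, 1.74% and 0.586% in stem cells, secretory and absorptive precursors, and 2.05% in nIELs, 1.21% in iIELs and 0.529% in B cells (3 UMIs), so that it varied more in proportion than mt-Cytb.

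Within a subcluster, cells with more nuclear transcripts did not hold more mt- transcripts. Spearman's rho between the nuclear and mt- shares of a cell was −0.657 in 32 secretory precursors (−0.578 with the nuclear share taken of the UMIs outside the mt- rows), −0.150 in 42 absorptive precursors and 0.120 in 32 stem cells. The points share their denominator, and depth moved with both shares in secretory precursors (rho 0.519 for the nuclear and −0.499 for the mt- share). These values describe the cells only.

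Lists of other mitochondrial genes were set beside the members, by genes with at least 20 UMIs and the same thresholds, and are read against the same shares of all genes (27.5% higher and 21.7% lower in absorptive precursors). In absorptive precursors, 7 of 12 assembly factors of the complexes were higher and 1 lower (1.52-fold in sum, 1.33 to 1.74). Among them Cox20, needed for maturation of complex IV, was 2.48-fold (1.59 to 3.94), Cox17, which delivers copper to it, 1.94-fold (1.36 to 2.79) and Uqcc3, needed for complex III, 0.489-fold (0.200 to 1.09). Of the citric acid cycle and pyruvate dehydrogenase genes, 9 of 17 were higher and 2 lower (1.55-fold). Idh3g, of isocitrate dehydrogenase, was 3.81-fold (1.98 to 7.79), Suclg1, of succinyl-CoA synthetase, 1.88-fold (1.35 to 2.64) and Ogdh, of oxoglutarate dehydrogenase, 0.596-fold (0.308 to 1.11). Import genes stood at 8 of 14 higher (1.49-fold), with Tomm22, a receptor of the outer membrane, at 2.79-fold (1.44 to 5.70), and carriers and porins at 8 of 11 higher (1.42-fold), with the uncoupling protein Ucp2 at 0.434-fold (0.213 to 0.831).

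Genes of glycolysis stood close to those of the citric acid cycle. In absorptive precursors 5 of 9 genes of glycolysis and lactate handling were higher and 1 lower (1.53-fold in sum). Slc16a1, the monocarboxylate transporter that carries lactate and butyrate, was 10.1-fold (3.57 to 39.4) on 31 UMIs against 4, Ldha, lactate dehydrogenase, 1.35-fold (0.987 to 1.85) and Hk2, a hexokinase, 0.445-fold (0.224 to 0.833). In stem cells 3 of the 9 were higher and 4 lower (0.899-fold), with Pkm, pyruvate kinase, at 2.23-fold (1.16 to 4.15). The mitochondrial ribosome genes were 15 of 42 higher and 2 lower in absorptive precursors (1.35-fold), with Mrps6 at 3.76-fold (1.71 to 9.13), and the genes of mitochondrial DNA transcription and RNA handling 4 of 5 higher (1.33-fold), with Lrpprc, which stabilises mt- mRNAs, at 2.44-fold (0.972 to 6.65). Of 3 regulators of mitochondrial biogenesis, 2 were higher (1.38-fold), Ppargc1b, a coactivator of respiratory genes, at 2.51-fold (1.27 to 5.18).

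In stem cells, where 24.9% of all genes were higher and 28.5% lower, the sums ranged from 0.736-fold (0.623 to 0.864) for carriers and porins to 1.44-fold (1.02 to 2.02) for the regulators. Higher and lower genes numbered 1 and 5 of 12 assembly factors (0.744-fold), 1 and 5 of 11 carriers and porins, 1 and 6 of 17 citric acid cycle genes (0.822-fold), 3 and 5 of 14 import genes (0.885-fold), 6 and 8 of 42 mitochondrial ribosome genes (0.9497-fold), 0 and 1 of 5 genes of transcription and RNA handling (1.25-fold) and 1 and 0 of 3 regulators. The ribosome counts were below the shares of all genes in both directions. Cox17 was the lowest assembly factor at 0.286-fold (0.128 to 0.559), or 0.165-fold (0.0335 to 0.498) without the cells with 2 names. Slc25a5, the ADP/ATP carrier with most UMIs, was 0.497-fold (0.365 to 0.664) on 52 UMIs, and 0.251-fold (0.139 to 0.421) without those cells. In secretory precursors all 8 lists summed below 1, between 0.496-fold (regulators) and 0.829-fold (carriers and porins), but the median of all genes was 0.837. Each list held 0 or 1 higher gene (16.3% of all genes). Lower were 6 of 12 assembly factors, 7 of 17 citric acid cycle genes, 3 of 9 glycolysis genes and 7 of 14 import genes. So were 4 of 11 carriers and porins and 18 of 42 mitochondrial ribosome genes. The same held for 4 of 5 genes of transcription and RNA handling and 2 of 3 regulators. Of all genes 32.2% were lower, and glycolysis and carriers were near that share. Lrpprc was 0.164-fold (0.0186 to 0.669) and Idh3g 0.229-fold (0.0798 to 0.538).

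Between the epithelial cluster and the lymphocytes, the citric acid cycle list came closest to the members' level, with 12 of 18 higher, 0 lower and a sum of 1.89-fold, next to 1.69-fold for carriers and porins (10 of 14 higher). Suclg1 was 3.16-fold (2.38 to 4.21). The others had shares of higher genes nearer to the 28.2% of all genes, with fewer lower genes than the 34.5% of all genes except among the regulators. Higher and lower genes numbered 7 and 3 of 26 assembly factors (1.04-fold), 20 and 7 of 71 mitochondrial ribosome genes (1.19-fold), 7 and 2 of 22 import genes (1.25-fold), 5 and 3 of 13 glycolysis genes (1.28-fold), 4 and 2 of 13 genes of transcription and RNA handling (1.16-fold) and 3 and 3 of 8 regulators (1.21-fold). Cox17 was 0.702-fold (0.553 to 0.885) and Hk2 8.04-fold (4.24 to 16.3) in the epithelial cluster, and without the cells with 2 names 1 Hk2 UMI was left in the lymphocytes against 43. The ADP/ATP carriers differed, with Slc25a5 at 2.10-fold (1.80 to 2.44) and Slc25a4 at 0.351-fold (0.190 to 0.605).

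Barcodes that the authors' lists leave out had few nuclear members' UMIs and many mt- UMIs. Among them 318 of 601 lay above 19.7% mt-, the highest share of any clustered barcode, and so did 39 of the 40 that were as deep as clustered cells (504 UMIs or more). None of these barcodes entered a value above except the totals over all barcodes.

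**Figure D5:**
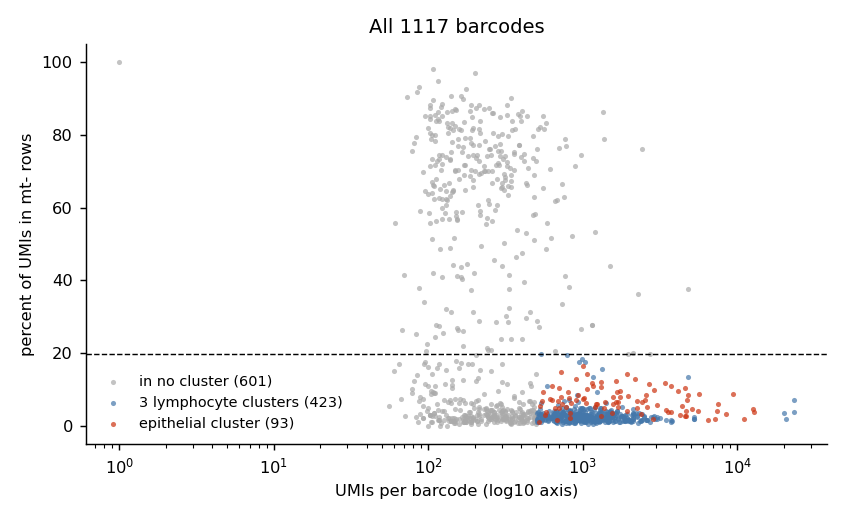
Percent of UMIs in mt- rows against UMIs per barcode (log10 axis), with 1 point per barcode in grey for the 601 in no cluster, blue for the 423 in lymphocyte clusters and red for the 93 in the epithelial cluster, and a dashed line at 19.7%. Every clustered barcode lies at or under the line, and 318 grey points lie above it.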

How the data were processed

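The authors processed the Drop-seq reads with the McCarroll pipeline and deposited 1 matrix of counts, whole UMIs per gene symbol and barcode without normalization. Alignment with STAR 2.5.0, Picard 1.137 and the genome builds mm10 and hg19 are listed in the submitters' processing notes. The annotation and the settings for joining UMIs are not given in the sources used here. Cells were named by barcode from the authors' lists. Doublets were not called here, and columns of other series numbered 0.

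UMIs were summed per group and divided by all UMIs of the group (CPM). Folds set a group against all other cells in that clustering, and their interval is the exact conditional binomial one. Shares have exact Clopper-Pearson intervals, and CPM exact Poisson intervals. The limit for 0 counts was 3 counts. A gene was called higher at 1.5-fold or more and lower at 1/1.5 or less, with at least 20 UMIs in the cells compared. UMIs of 1 cell are not fully independent molecules, and no p-value was computed. Folds were tested on simulated data. Python 3.11.15, numpy 2.4.6, pandas 2.3.3 and scipy 1.17.1 were used. Copies of 3′ windows were sought in the GENCODE M21 transcripts (GRCm38).

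Named are the mt- mRNAs, in each complex the member with most UMIs and those with the highest and lowest fold for each group, isoform pairs, and in each list examples by the same rule. Promoters are shown for members with most UMIs and the motif upstream in both annotations. Ndufs7, the pseudogenes and mt- RNAs other than mRNAs were named after their values had been seen. Members, lists, roles and markers were chosen with earlier results of these data known, and the marker list of the closing section and 5 further alternatives after the data had been seen. Only this matrix was analysed, and some single-gene values are not reported here.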

Additional observations from a re-analysis of the deposited data

Results flagged for a closer look

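Barcodes in no cluster were outside the comparisons, and mt- rows took 36.8% (36.6% to 37.1%; 36.84 before rounding) of their 171737 UMIs, above every cluster. Their median was 212 UMIs. Their nuclear oxidative phosphorylation share was 1.36%, so that the ratio of mt- to nuclear UMIs was 27.1 (25.97 to 28.2), against 1.10 to 2.06 in the named groups. In X1 the share was 39.5% below 200 UMIs, 31.2% from 200 to 500 UMIs and 49.8% from 500 UMIs on. The 13 such barcodes of X2 stood at 2.40%. Which filter the authors applied was not tested.

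The pseudogene row Gm13341 held 4185 UMIs and is not a member by the symbol rule, while mt-Co2, with which it shares 35.3% of 50-base stretches, held 2. Its level in barcodes of no cluster was 18070 CPM (17440 to 18720), against 461 CPM in nIELs, 587 CPM in B cells, 1140 CPM in iIELs and 2416 CPM in the epithelial cluster, where it was 3.03-fold (2.69 to 3.43) higher than in the lymphocytes. The mt- mRNA rows were 3.22-fold in the same comparison.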

How the results depend on the processing

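Of 102 alternative values, 46 stayed within the counting interval of the reported fold or share or, for counts of genes, within 1.5 times, 55 lay outside and 1 reversed. No paired analysis was possible because the series has 1 group and its barcodes could not be assigned to the pools, and for the same reason no sample could be left out and the barcode sets stand in. For the nuclear members in absorptive precursors (1.72-fold), the mean of cells gave 1.95, totals without mt- and ribosomal protein genes 1.80, X1 1.85, X2 1.52 and cells thinned to 500 UMIs 2.04. In secretory precursors (0.689) such totals gave 0.663, X1 0.638 and X2 0.893. In stem cells (0.690) the mean of cells gave 0.615, X1 0.508, X2 0.751, no cells with 2 names 0.599, no 4 deepest cells 0.606 and thinning 0.577. In the epithelial cluster (1.91) the mean of cells gave 2.04, totals without mt- rows 1.97, without mt- and ribosomal protein genes 1.78, X1 1.98, X2 1.44, no cells with 2 names 2.34, no 4 deepest cells 2.28 and thinning 2.08. The mt- fold in absorptive precursors (1.13) was 1.10 by the mean of cells, 1.07 in X1, 1.32 in X2, 1.27 without mt-Rnr2, 1.23 with mRNAs alone and 1.09 after thinning. In secretory precursors (0.779) it was 0.843, 0.810, 0.582, 0.665, 0.667 and 0.837 in that order, and 0.717 without the 4 deepest cells. In stem cells (1.16) it was 1.06 by the mean of cells, 1.38 in X1, 1.12 in X2, 1.22 without cells with 2 names, 1.33 without the 4 deepest, 1.25 with mRNAs alone and 1.07 after thinning. In the epithelial cluster (2.02) it was 2.43, 2.16, 1.42, 2.41, 2.16, 3.22 and 2.39 in that order, and 2.79 without mt-Rnr2. At 2-fold the counts were 18 in absorptive precursors, 22 in stem cells and 32 in the epithelial cluster. The mt-Cytb share of mt- mRNAs in the subclusters (32.6%) was 34.3% in X2. The mt- share in barcodes of no cluster was 9.61 times that of clustered ones, 10.2 times in X1 and 0.538 times in X2, where 13 such barcodes were left. The cause of these shifts was not tested. The folds of the sums kept their side of 1 under the alternatives run, but with 32 to 42 cells and as few as 2 UMIs, single genes of the subclusters rest on few molecules, and 1 deep cell holds 33.6% of the stem cell UMIs.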

Other observations

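Cox6a2, the heart and muscle form of a complex IV subunit, had 16 UMIs in 5 of the 47 cells of the B cell cluster (10.6% of cells, 3.55% to 23.1%) and 0 in the other clusters, at least 53.9-fold higher with 3 UMIs as the limit over all other clusters together. The 5 cells held 1, 1, 2, 6 and 6 UMIs at depths of 1022 to 2338 UMIs, with 3 of them in X1 and 2 in X2. Another 2 UMIs lay in 1 barcode of no cluster. The common form Cox6a1 had 35 UMIs in 20 of the 47 cells.

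In these 5 cells the B cell genes Cd79a, Cd79b and Ms4a1 had 0 UMIs, against 19, 45 and 86 UMIs in the other 42 cells of the cluster. Cd74 and H2-Aa, of the MHC class II pathway, were seen in all 5 (89 and 32 UMIs). Some T-cell and IEL markers were seen too. Cd8b1 had 13 UMIs in 4 of the 5 cells and 12 in 6 of the 42, and Cd7 8 in 3 and 54 in 16. Cd8a had 3 in 2 and 23 in 12, Cd52 7 in 4 and 261 in 41, and Ptprc 4 in 2 and 61 in 28. Cd3d, Cd3e, Cd3g, Trac and Trdc had 0 UMIs in the 5 cells. Of 14 genes known from plasmacytoid dendritic cells, Siglech had 55 UMIs in 5 of the 5 cells, 26 UMIs in 3 of the other 42 and 0 in the 469 cells of the other clusters. Bst2 had 17 UMIs in all 5 and 7 in 5 of the 42, Irf8 19 in 4 and 33 in 20, Ly6d 33 in 4 and 54 in 22, Lair1 10 in 4 and 3 in 2, Ly6c2 17 in 5 and 6 in 5, Cd209d 12 in 3 and 8 in 5, Ccr9 11 in 3 and 1 in 1, Tcf4 17 in 3 and 23 in 16, Klk1 12 in 2 and 0 in 0, and Smim5 5 in 2 and 0 in 0. Spib, Runx2 and Pacsin1 had 1, 3 and 1 UMIs in the 5 cells. In the 469 cells of the other clusters Klk1 had 935 UMIs in 66 cells, Irf8 53 in 44 and Tcf4 49 in 36. Bst2 had 39 in 37 there, Ccr9 39 in 30, Ly6c2 37 in 14, Runx2 19 in 19 and Pacsin1 10 in 9. The other genes of the 14 had 2 UMIs or fewer there. The row Tcf4 is a different gene from the study's Tcf4, which drives Cre and is also known as Tcf7l2. The list was chosen after the Cox6a2 values had been seen and supports no name for these cells.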
